A study of Homo sapiens with 6 samples.

Results

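Integrins are cell-surface receptors made of 1 alpha and 1 beta subunit, and laminins are basement membrane proteins made of 1 alpha, 1 beta and 1 gamma chain. The genes described here are the protein-coding genes of these subunits and chains, chosen by symbol and not by any measured value. They comprise 18 integrin alpha subunits, 8 integrin beta subunits and 12 laminin chains, 38 genes among the 60649 gene rows of the count table. ITGBL1, an integrin beta-like protein, and ligand-binding proteins such as ITGB1BP1 do not belong to the set. OVCAR5, an established human epithelial ovarian cancer cell line, received either a METTL3 lentivirus or an empty-vector lentivirus and was kept under puromycin until stable, with 3 libraries sequenced per group. METTL3 is the catalytic subunit of the complex that writes N6-methyladenosine (m6A) into mRNA. The controls appear in the labels both as parental cells and as cells given the empty vector; the name vector control is used here. All 6 libraries come from 1 cell line, both groups carry a lentiviral vector and went through the same selection, the promoter of the transgene is not given, and nothing says that the replicates came from separate transductions or cultures. The p-values therefore measure only the spread between these libraries, which may be technical.

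In epithelia, integrins link the matrix outside the cell to the actin or keratin skeleton inside it, and they pass survival signals through proteins such as FAK and ILK. Integrin alpha 6 beta 4 holds hemidesmosomes to laminin-332, a laminin that holds the alpha 3 and beta 3 chains. Alpha v integrins bind fibronectin and vitronectin, and those with beta 6 or beta 8 also activate latent TGF-β. In ovarian cancer these receptors carry adhesion of the cells to mesothelium and matrix.

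Total counts ranged from 101214854 to 125463386 with METTL3 and from 96633925 to 113343102 with the vector. METTL3 was at 152.4, 165.5 and 175.3 CPM (counts scaled to the size of the library) with METTL3 and at 80.6, 68.6 and 71.6 CPM with the vector (log2 fold change 1.16, standard error 0.117, edgeR adjusted p = 0.072), so the libraries follow their labels. The replicate 1 libraries of both groups stood apart. Both lay above the other 4 libraries for 2 of the 36 genes tested (17% of all genes tested) and below them for 9 (15.4% of all genes tested), so genes called in replicates 2 and 3 are described with the values of that fit and of the fit on 6 libraries. The 7 epithelial markers, EPCAM, CDH1, KRT7, KRT8, KRT18, KRT19 and CLDN4, summed to between 7767 and 8717 CPM with METTL3 and to 9734, 6341 and 6246 CPM with the vector. The 7 leukocyte markers summed to 41.1 to 53.0 CPM with METTL3 and to 51.3 to 71.8 CPM with the vector, LYZ having the highest mean at 39.6 CPM. CD14 and CORO1A were also read, while PTPRC, CD3E and CD68 were each at 0.071 CPM or less in every library. CPM were computed from the deposited raw counts with scaling by the trimmed mean of M-values (TMM), and the values of a group are given in the order of replicates 1, 2 and 3.

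The line transcribed a wide set of these genes. A mean of at least 10 CPM over the 6 libraries was found for 23 of the 38 genes, and of at least 100 CPM for 15. A further 6 genes that were tested lay between 1 and 10 CPM and 7 lay under 1 CPM. ITGA4 and ITGA8 did not pass the filter on low counts, at 11 counts or fewer in every library. To compare genes with each other, CPM were divided by the length of all exons of the gene in kilobases. On this scale ITGA6 stood at 154.3 ± 18.8 (SD, n = 6), ITGA3 at 131.7 ± 35.0 and ITGB1 at 108.6 ± 9.25 CPM per kilobase. These are the alpha 6, alpha 3 and beta 1 subunits, which combine into laminin receptors, and in this order each overlapped its neighbour within 1 SD, while ITGA6 and ITGB1 did not overlap. LAMB3 followed at 54.9 ± 15.6, LAMA5 at 53.5 ± 14.6 and ITGB4 at 48.0 ± 12.2 CPM per kilobase (SD, n = 6 each), and these 3 did not differ beyond their spread either. Collagen receptor ITGA2 was at 17.7 ± 1.52, fibronectin receptor ITGA5 at 14.9 ± 4.30 and ITGAV, which encodes alpha v, at 14.5 ± 1.84 CPM per kilobase (SD, n = 6 each). With the mean length of the protein-coding transcripts in place of all exons, ITGA3 led, ITGB1 came next and ITGA6 was the third, so the order among these depends on the length used.

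**Figure D1:**
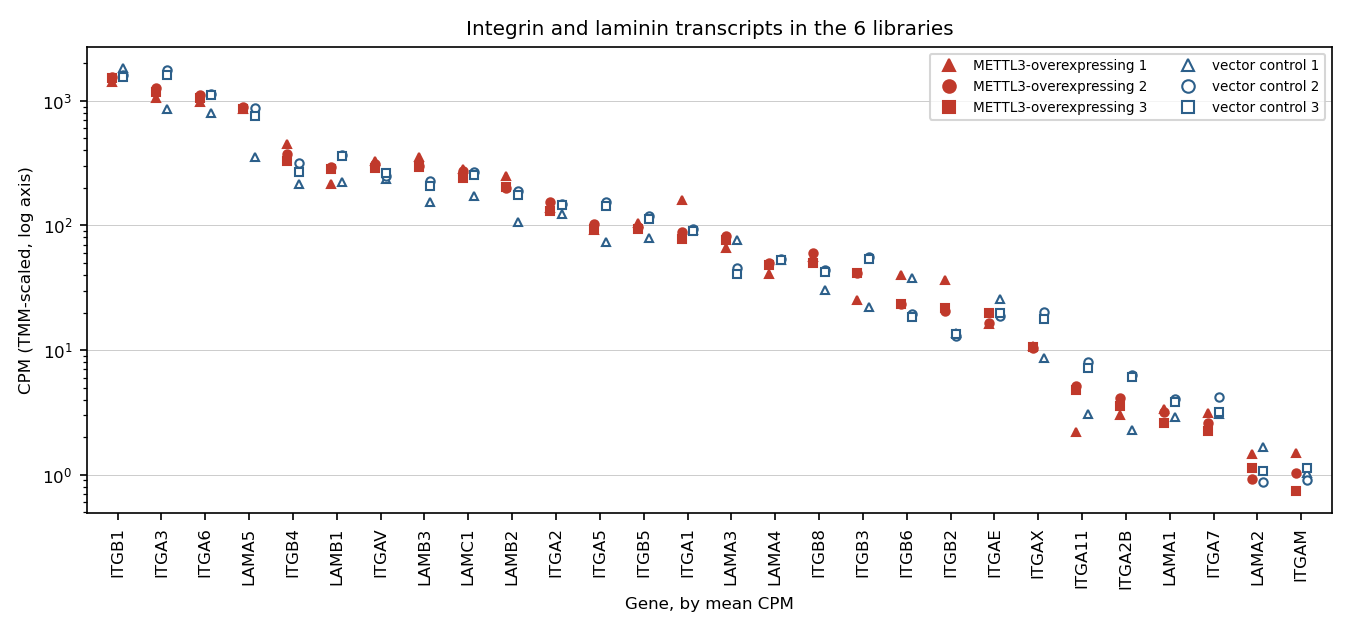
CPM (vertical, log axis) of 28 integrin and laminin genes with a mean of at least 1 CPM, ordered by their mean, in each METTL3-overexpressing (filled) and vector control (open) library; triangles, circles and squares are replicates 1, 2 and 3. ITGB1, ITGA3 and ITGA6 are the 3 highest genes, and the open triangle of vector control replicate 1 is the lowest point for many genes.

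The comparison of METTL3-overexpressing with vector control cells was made with edgeR's quasi-likelihood test on all 6 libraries, fitted across all genes that passed the filter. Of the 38 genes, 36 were among the 22038 genes tested. An adjusted p-value under 0.05 was found for 0 of them, against 0% of all genes tested. Unadjusted p-values under 0.05 were found for 6 of the 36 (16.7%) against 8.3% of all genes tested. Of these, 5 were higher with METTL3 (ITGB2, LAMB3, ITGB8, ITGB4 and ITGAV), against 4.4% of all genes tested, and 1 was lower (ITGA9), against 3.91%. The median log2 fold change of the 36 genes was -0.058, against -0.018 over all genes tested, and the median of its absolute size was 0.34 against 0.20. DESeq2, the tool named in the study's methods, called ITGB2 and LAMB3, 2 of the 36 genes (5.56%), against 1.19% of all genes with an adjusted p-value. When genes of low count were kept, edgeR called 4 of the 38, against 1.3% of all genes, and without vector control replicate 1 it called 4 of the 36, against 1.62%.

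For 9 of the 36 genes (25%) the METTL3 and vector libraries held separate ranges of CPM, against 17.4% of all genes tested. With METTL3, 6 of them lay higher, namely LAMB3, LAMB2, ITGB4, ITGB8, ITGB2 and ITGAV, against 8.47% of all genes tested, and 3 lay lower, namely ITGB1, LAMA4 and ITGAD, against 8.93%. Within replicate numbers, the ratio of METTL3 to vector had the same sign in all 3 pairs for 15 of the 36 genes (41.7%), against 39.5% of all genes tested. For 16 genes (44.4%) replicate 1 had the opposite sign to replicates 2 and 3, against 29.7% of all genes tested. Vector control replicate 1 was the lowest of the 6 libraries for 18 of the 36 genes (50%), against 24.7% of all genes tested. The comparison was therefore repeated with the replicate 1 libraries left out; earlier results of these data were known when this was chosen. There 18 of the 36 (50%) passed an adjusted p-value of 0.05, against 15.2% of all genes tested, 8 of them higher (6.66% of all genes tested) and 10 lower (8.59%). Only 2 libraries per group carry this test, and 10 of the 18 genes changed the other way within replicate 1, as did 37.2% of all genes called in that comparison. The shares are not matched for level, since 23 of the 36 genes had a mean of at least 10 CPM, as had 10031 of the 22038 genes tested over 6 libraries.

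**Figure D2:**
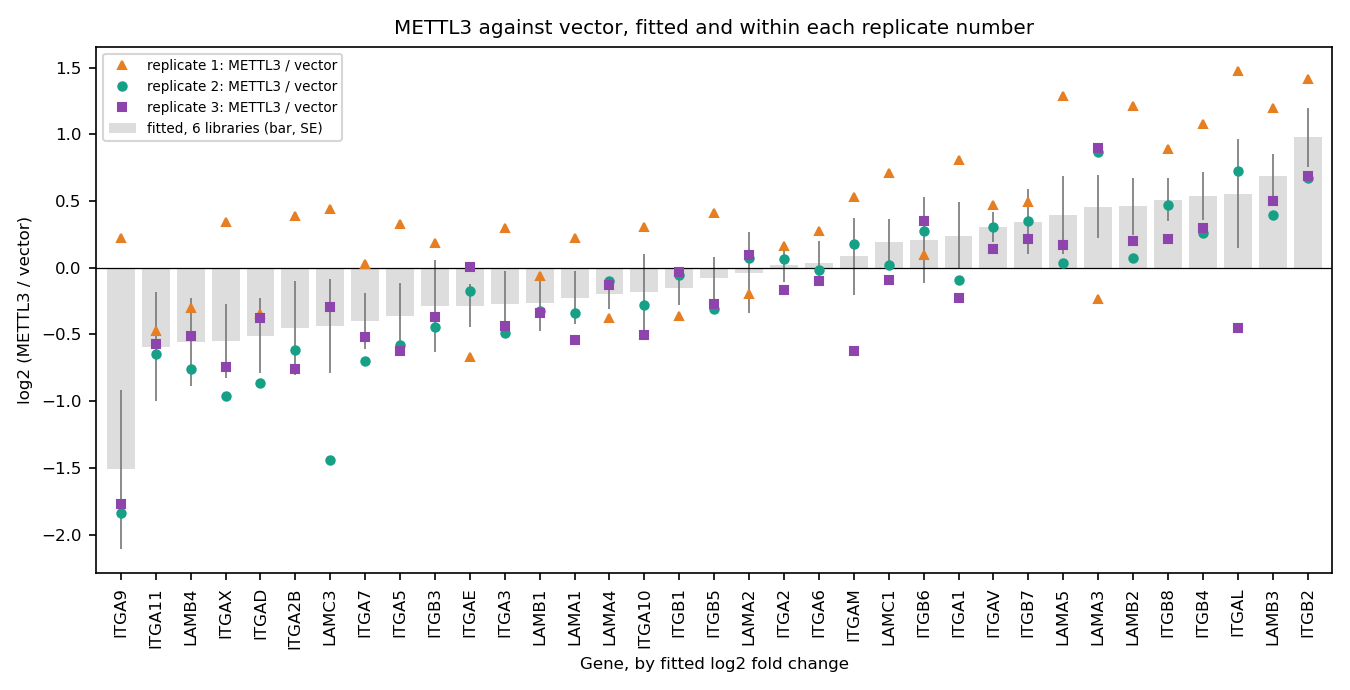
Log2 ratio of METTL3 to vector (vertical) for 35 of the genes tested, ordered by the fitted log2 fold change over 6 libraries (grey bars, lines are standard errors); triangles, circles and squares are the ratios of the CPM within replicates 1, 2 and 3. For ITGB2, LAMB3, ITGB4 and ITGB8 all 3 ratios lie above 0, whereas for ITGA3, ITGA5, ITGB3 and ITGAX the triangle lies above 0 and the circle and square below it.

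Laminin-332 is the anchoring laminin of epithelia. LAMB3, its beta 3 chain (ENSG00000196878.15, chromosome 1, 209614870 to 209652425, reverse strand, GRCh38), was at 352.2, 299.8 and 292.1 CPM with METTL3 and at 153.2, 227.6 and 206.3 CPM with the vector. Every METTL3-overexpressing library lay above every vector control library, and the means were 314.7 ± 32.7 and 195.7 ± 38.3 CPM (SD, n = 3 each). The log2 fold change of LAMB3 was 0.69 (standard error 0.166, edgeR adjusted p = 0.398), and in replicates 2 and 3 it was 0.45 (standard error 0.0565, edgeR adjusted p = 8.24e-05).
The alpha 3 chain of laminin-332 behaved differently in replicate 1. LAMA3, which encodes it (ENSG00000053747.17, chromosome 18, 23689453 to 23956222, forward strand), was at 65.3, 82.2 and 76.4 CPM with METTL3 and at 76.9, 45.1 and 40.9 CPM with the vector. For LAMA3, vector control replicate 1 lay among the METTL3-overexpressing libraries, while vector control replicates 2 and 3 lay below all of them. Over 6 libraries the log2 fold change of LAMA3 was 0.46 (standard error 0.233, edgeR adjusted p = 0.632). In replicates 2 and 3 it was 0.88 (standard error 0.0639, edgeR adjusted p = 5.85e-07). The summed epithelial markers were highest in the same vector control replicate 1 library. In the fit on 6 libraries all 7 epithelial markers were higher with METTL3, against 47.3% of all genes tested, and 0 passed. All 7 were called higher in replicates 2 and 3, against 6.66% of all genes tested. The part of this marker shift in the laminin values was not tested.

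The promoters of LAMA3, LAMB3 and ITGA5 are printed because these were the genes of the set whose promoters held the AP-1 motif TGANTCA. LAMA3 and LAMB3 were higher with METTL3 in replicates 2 and 3, and ITGA5 was lower there. Sequences were available for 33 promoters of 26 of the 38 genes (RefSeq, GRCh38.p14; 250 bases before to 50 bases after the start). The motif reads the same on both strands, and capitals mark it. The LAMA3 promoter (chr18:23872770-23873069, forward strand) starts a transcript inside the gene and holds the motif at -125 and -69 bases from the start. The LAMB3 promoter (chr1:209651325-209651624, reverse strand) is 1 of 3 listed for that gene and holds it at -67 bases, and the ITGA5 promoter (chr12:54419217-54419516, reverse strand) holds it at -6 bases.
LAMA3: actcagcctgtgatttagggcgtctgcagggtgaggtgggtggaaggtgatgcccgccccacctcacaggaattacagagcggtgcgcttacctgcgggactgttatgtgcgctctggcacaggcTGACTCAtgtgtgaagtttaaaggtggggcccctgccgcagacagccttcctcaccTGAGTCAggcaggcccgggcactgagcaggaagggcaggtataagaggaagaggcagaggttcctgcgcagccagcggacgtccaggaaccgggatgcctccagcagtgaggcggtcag
LAMB3: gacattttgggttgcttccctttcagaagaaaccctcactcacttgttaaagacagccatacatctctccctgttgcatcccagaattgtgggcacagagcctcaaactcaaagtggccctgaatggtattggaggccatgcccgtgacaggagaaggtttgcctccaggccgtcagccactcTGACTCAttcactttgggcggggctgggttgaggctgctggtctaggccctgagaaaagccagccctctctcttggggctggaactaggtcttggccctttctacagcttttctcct
ITGA5: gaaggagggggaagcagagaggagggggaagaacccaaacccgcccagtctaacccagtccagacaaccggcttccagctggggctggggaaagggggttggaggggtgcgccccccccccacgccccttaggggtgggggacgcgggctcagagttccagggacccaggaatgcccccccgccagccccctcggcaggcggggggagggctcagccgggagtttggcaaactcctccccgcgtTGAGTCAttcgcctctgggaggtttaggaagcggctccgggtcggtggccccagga
The motif was found in 3 of the 33 promoters of the set (9.09%), against 7.71% of 35116 promoters of the same length. The GC box GGGCGG, searched on both strands, was in 19 of the 33 (57.6%) against 45.0% of all, and the E-box CAGGTG, also on both strands, in 8 (24.2%) against 20.6%. A match is a description of these letters only.

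Among the remaining laminin chains, LAMA5, LAMB1, LAMB2 and LAMC1 form the common basement membrane laminins of adult epithelia. LAMA5 was at 858.1, 895.8 and 852.7 CPM with METTL3 and at 351.1, 873.5 and 757.2 CPM with the vector, so the groups differed by the low value of vector control replicate 1 (log2 fold change 0.40, standard error 0.290, edgeR adjusted p = 0.696; 0.10 in replicates 2 and 3). LAMB1 was at 215.0, 294.6 and 285.0 CPM with METTL3 and at 224.9, 369.6 and 359.7 CPM with the vector. The replicate 1 libraries of LAMB1 lay below the other 4, and METTL3-overexpressing replicates 2 and 3 lay below vector control replicates 2 and 3. Its log2 fold change was -0.26 (standard error 0.211, edgeR adjusted p = 0.721) over 6 libraries and -0.33 (standard error 0.0510, edgeR adjusted p = 0.000403) in replicates 2 and 3. LAMB2 was at 248.9, 198.9 and 203.3 CPM with METTL3 and at 107.3, 188.9 and 177.0 CPM with the vector, without overlap (log2 fold change 0.46, standard error 0.212, edgeR adjusted p = 0.613). Vector control replicate 1 was again the lowest library of LAMB2, and the log2 fold change was 0.25 without it and 0.13 in replicates 2 and 3 (standard error 0.0529, edgeR adjusted p = 0.110). LAMC1 was at 281.7, 272.7 and 239.3 CPM against 171.9, 269.0 and 255.2 CPM, and LAMA4, the alpha 4 chain of vessel laminins, at 40.6, 49.8 and 48.1 against 52.7, 53.4 and 52.6 CPM. LAMC1 overlapped between the groups, and LAMA4 was lower in every METTL3-overexpressing library, by a log2 fold change of -0.20 (standard error 0.114, edgeR adjusted p = 0.650) over 6 libraries and -0.12 (edgeR adjusted p = 0.196) in replicates 2 and 3. The 5 endothelial markers summed to 9.08 to 23.3 CPM with METTL3 and to 5.96 to 8.71 CPM with the vector, most of it PECAM1, and KDR was at 0.027 CPM or less. LAMA1, LAMA2, LAMB4 and LAMC3 ranged from 0.452 to 4.03 CPM over the libraries, and none of these 4 passed edgeR's test over 6 libraries or in replicates 2 and 3.

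The share of each chain within a library does not depend on scaling between libraries. Of the summed CPM per kilobase of the 4 laminin beta chains, LAMB3 took 61.3%, 59.0% and 58.3% with METTL3 and 54.3%, 50.7% and 49.5% with the vector. LAMB1 took 9.35%, 14.5% and 14.2% with METTL3 and 19.9%, 20.6% and 21.6% with the vector. These shares of LAMB3 and LAMB1 did not overlap between the groups in any library, replicate 1 included, while the share of LAMB2 overlapped (27.8% ± 1.44 against 27.7% ± 1.69, SD, n = 3 each). With the mean transcript length, LAMB3 took 45.8% to 51.9% with METTL3 and 35.2% to 39.4% with the vector. LAMB1 then took 22.6%, 32.4% and 31.9% with METTL3 and 41.3%, 42.3% and 43.7% with the vector. By this length LAMB1 took a larger share than LAMB3 in every vector control library. The share of LAMB2 no longer overlapped, at 25.5%, 21.4% and 22.2% with METTL3 and 19.2%, 21.1% and 21.0% with the vector. The shares were chosen for description after the values were seen and were not tested.

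**Figure D3:**
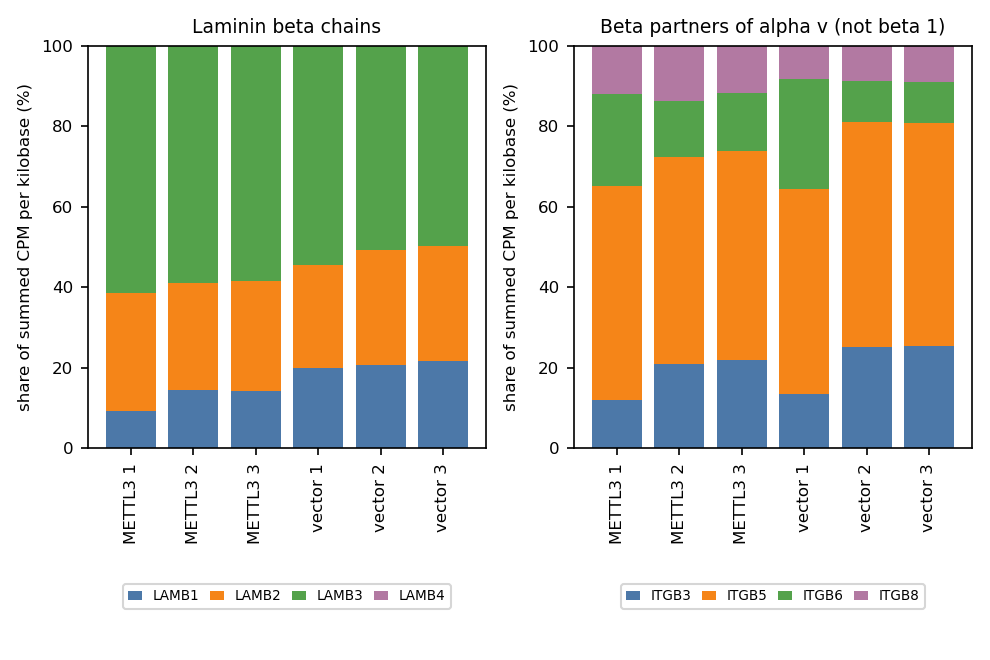
Share of the summed CPM per kilobase (vertical, %) taken by each laminin beta chain and each beta subunit that pairs with alpha v (beta 1 left out), in each library. LAMB1 takes under 15% in the METTL3-overexpressing libraries and about 20% or more in the vector control libraries, and ITGB8 takes a larger share with METTL3.

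ITGB4 encodes beta 4, the integrin subunit of hemidesmosomes that pairs with alpha 6 only (ENSG00000132470.14, chromosome 17, 75721328 to 75757818, forward strand). It was at 449.2, 375.5 and 327.8 CPM with METTL3 and at 213.2, 314.1 and 266.1 CPM with the vector. The groups did not overlap, although the lowest METTL3-overexpressing library and the highest vector control library lay close together. The log2 fold change of ITGB4 was 0.54 (standard error 0.177, edgeR adjusted p = 0.526) over 6 libraries and 0.28 (standard error 0.0827, edgeR adjusted p = 0.0474) in replicates 2 and 3. Its partner ITGA6 was at 974.2, 1115.7 and 1044.2 CPM with METTL3 and at 805.0, 1127.6 and 1117.8 CPM with the vector, and its log2 fold change was 0.039 (standard error 0.159, edgeR adjusted p = 0.956). ITGB1, the shared partner of most alpha subunits, was at 1426.1, 1542.3 and 1524.5 CPM with METTL3 and at 1828.0, 1604.2 and 1558.9 CPM with the vector. ITGB1 lay lower in every METTL3-overexpressing library, by a log2 fold change of -0.15 (standard error 0.126, edgeR adjusted p = 0.733) over 6 libraries and -0.046 (edgeR adjusted p = 0.609) in replicates 2 and 3.

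ITGA3, the alpha 3 subunit of a laminin receptor (ENSG00000005884.18, chromosome 17, 50055968 to 50090481, forward strand), was at 1056.6, 1267.4 and 1179.1 CPM with METTL3 and at 859.4, 1780.0 and 1600.1 CPM with the vector. Vector control replicate 1 was the lowest library and vector control replicates 2 and 3 were the highest. Its log2 fold change was -0.28 (standard error 0.250, edgeR adjusted p = 0.754) over 6 libraries and -0.47 (standard error 0.0594, edgeR adjusted p = 8.87e-05) in replicates 2 and 3. ITGA7, the alpha 7 subunit known from muscle, was at 3.10, 2.59 and 2.24 CPM with METTL3 and at 3.05, 4.21 and 3.20 CPM with the vector, with a log2 fold change of -0.40 over 6 libraries (standard error 0.211, edgeR adjusted p = 0.636) and -0.62 in replicates 2 and 3 (standard error 0.159, edgeR adjusted p = 0.0167). The collagen receptors ITGA2 and ITGA1 lacked a stable direction. ITGA2 was at 137.4, 154.7 and 129.8 CPM with METTL3 and at 122.5, 147.7 and 145.6 CPM with the vector. ITGA1 was at 160.7, 87.8 and 77.4 CPM with METTL3 and at 91.8, 93.7 and 90.7 CPM with the vector, and METTL3-overexpressing replicate 1 stood above the other 5 libraries. Some exons of ITGA1 overlap the gene PELO on the same strand, so its values are less certain. ITGA11, the collagen receptor known from fibroblasts, was lower within each replicate number, at 2.19, 5.12 and 4.80 CPM with METTL3 and 3.05, 8.03 and 7.14 CPM with the vector. In replicates 2 and 3 its log2 fold change was -0.61 (standard error 0.107, edgeR adjusted p = 0.00115), against -0.59 over 6 libraries (standard error 0.412, edgeR adjusted p = 0.684), and ITGA10 did not pass there.

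Alpha v, alpha 5 and their beta partners bind the RGD sequence of fibronectin and vitronectin. ITGAV (ENSG00000138448.12, chromosome 2, 186590010 to 186680901, forward strand) was at 328.2, 310.3 and 290.3 CPM with METTL3 and at 237.1, 250.7 and 262.8 CPM with the vector. The ITGAV groups did not overlap, and its log2 fold change was 0.31 (standard error 0.112, edgeR adjusted p = 0.562) over 6 libraries and 0.22 (standard error 0.0554, edgeR adjusted p = 0.0127) in replicates 2 and 3.
ITGB8 (ENSG00000105855.10, chromosome 7, 20330702 to 20415754, forward strand) was at 55.7, 60.6 and 49.6 CPM with METTL3 and at 30.1, 43.7 and 42.6 CPM with the vector, again without overlap. The log2 fold change of ITGB8 was 0.51 (standard error 0.163, edgeR adjusted p = 0.517) over 6 libraries and 0.35 (standard error 0.0813, edgeR adjusted p = 0.0106) in replicates 2 and 3. ITGB6 was at 40.3, 23.3 and 23.3 CPM with METTL3 and at 37.8, 19.3 and 18.3 CPM with the vector, so that both replicate 1 libraries lay above the other 4. Within each replicate number ITGB6 was higher with METTL3, and in replicates 2 and 3 its log2 fold change was 0.31 (standard error 0.0678, edgeR adjusted p = 0.00618), against 0.21 over 6 libraries (standard error 0.321, edgeR adjusted p = 0.859). ITGB6 shares 16.7% of its exonic bases with another annotated gene on the same strand, so its values are less certain.
ITGB3, ITGB5 and ITGA5 were lower with METTL3 in replicates 2 and 3, and within replicate 1 ITGAV and all of these subunits were higher. ITGB3 was at 25.03, 41.3 and 41.8 CPM with METTL3 and at 22.0, 56.2 and 53.9 CPM with the vector, and both replicate 1 libraries were the lowest. In replicates 2 and 3 its log2 fold change was -0.41 (standard error 0.0563, edgeR adjusted p = 0.000172), against -0.29 (standard error 0.344, edgeR adjusted p = 0.815) over 6 libraries. About 33.2% of the exonic bases of ITGB3 are shared with another annotated gene on the same strand, which is listed at 0 in all libraries, so its values are less certain. ITGB5 was at 105.5, 96.5 and 93.5 CPM with METTL3 and at 79.4, 119.7 and 113.1 CPM with the vector, with a log2 fold change of -0.079 over 6 libraries (standard error 0.162, edgeR adjusted p = 0.900) and -0.29 in replicates 2 and 3 (standard error 0.0542, edgeR adjusted p = 0.00182). The value of ITGB5 over 6 libraries turned positive, to 0.057 without vector control replicate 2 and to 0.0067 without vector control replicate 3. ITGA5, the alpha 5 subunit of the fibronectin receptor (ENSG00000161638.11, chromosome 12, 54395261 to 54419266, reverse strand), was at 92.7, 103.1 and 93.5 CPM with METTL3 and at 73.8, 154.2 and 144.0 CPM with the vector. Its log2 fold change was -0.36 (standard error 0.247, edgeR adjusted p = 0.676) over 6 libraries, -0.60 (standard error 0.0607, edgeR adjusted p = 1.05e-05) in replicates 2 and 3 and 0.33 within replicate 1.

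As a share of the beta subunits that pair with alpha v other than beta 1, ITGB8 took 12.0%, 13.8% and 11.8% with METTL3 and 8.30%, 8.79% and 9.01% with the vector, without overlap between the groups. ITGB3 took 12.0%, 21.0% and 22.0% with METTL3 and 13.5%, 25.1% and 25.3% with the vector, where the replicate 1 libraries stood apart in both groups. ADAM23, the gene the study followed, encodes an adhesion protein known to bind integrin alpha v beta 3. It was at 7.69, 11.0 and 11.1 CPM with METTL3 and at 6.41, 18.6 and 17.7 CPM with the vector. From lowest to highest, the order of the 6 libraries was the same for ADAM23 as for ITGB3, which was 1 of the 36 genes (2.78%), against 0.939% of all genes tested. ITGA3, ITGA5 and ITGA2B had this order with only METTL3-overexpressing replicates 2 and 3 exchanged, and ITGA9 with only vector control replicates 2 and 3 exchanged. Both replicate 1 libraries lay below the other 4 for 9 of the 36 genes (15.4% of all genes tested). An order close to that of ADAM23 was therefore not particular to ITGB3.

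ITGB2, ITGAX, ITGAL, ITGAM, ITGAD and ITGAE encode subunits known mainly from leukocytes. ITGB2, the shared beta 2 subunit (ENSG00000160255.18, chromosome 21, 44885953 to 44931989, reverse strand), was at 36.5, 20.6 and 21.8 CPM with METTL3 and at 13.7, 12.9 and 13.5 CPM with the vector. The groups did not overlap and the vector control libraries varied little, with means of 26.3 ± 8.88 and 13.4 ± 0.431 CPM (SD, n = 3 each). Its log2 fold change was 0.98 (standard error 0.219, edgeR adjusted p = 0.395), and DESeq2 gave an adjusted p of 0.00334. In replicates 2 and 3 the log2 fold change of ITGB2 was 0.68 (standard error 0.0746, edgeR adjusted p = 2.29e-05). The antisense gene ITGB2-AS1, which shares 4.15% of the exonic bases of ITGB2 on the other strand, was at 0.903 to 2.66 CPM. Its log2 fold change had the same direction, at 0.76 over 6 libraries (standard error 0.315, edgeR adjusted p = 0.587) and 0.73 in replicates 2 and 3 (standard error 0.227, edgeR adjusted p = 0.0427). The strand setting of the counting is not given, and the part of this overlap in the ITGB2 values was not tested.
ITGAX, an alpha partner of beta 2, went the other way in replicates 2 and 3. It was at 10.9, 10.4 and 10.5 CPM with METTL3 and at 8.57, 20.2 and 17.7 CPM with the vector, and its log2 fold change there was -0.86 (standard error 0.0833, edgeR adjusted p = 7.67e-06). Over 6 libraries it was -0.55 (standard error 0.280, edgeR adjusted p = 0.632), and within replicate 1 the log2 ratio of ITGAX was 0.34. ITGAE, which pairs with beta 7 to bind E-cadherin, was at 16.1, 16.5 and 19.9 CPM with METTL3 and at 25.5, 18.6 and 19.8 CPM with the vector, and the groups overlapped. Of its exonic bases, 7.65% are shared with genes on the other strand, among them HASPIN at 13.2 to 19.5 CPM. The strand setting of the counting is not given, so the values of ITGAE are less certain. ITGAL, ITGAM, ITGAD and ITGB7 lay between 0.137 and 1.48 CPM, and none of these 4 passed edgeR's test over 6 libraries or in replicates 2 and 3. ITGB7 shares 42.3% of its exonic bases with ZNF740 on the other strand, at 38.5 to 46.4 CPM, so its values are less certain too. ITGAD was lower in every METTL3-overexpressing library (0.390, 0.282 and 0.426 against 0.496, 0.513 and 0.552 CPM). Of the 7 leukocyte markers only 3 were tested, and over 6 libraries 1 of them was higher with METTL3 and 2 were lower. LYZ and CORO1A were called lower in replicates 2 and 3, as ITGAX was, and 0 of the markers were called higher. For comparison, 8.59% of all genes tested were called lower there. The part of these markers in the ITGAX values was not tested.

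ITGA9 and ITGA2B completed the set of called subunits. ITGA9, a receptor for tenascin and osteopontin, was at 0.319, 0.420 and 0.545 CPM with METTL3 and at 0.274, 1.504 and 1.86 CPM with the vector. Its log2 fold change was -1.51 (standard error 0.596, edgeR adjusted p = 0.569) over 6 libraries and -1.81 (standard error 0.241, edgeR adjusted p = 0.000124) in replicates 2 and 3. ITGA9 shares 9.23% of its exonic bases with ITGA9-AS1 on the other strand, so its values are less certain. ITGA2B, the alpha IIb subunit known from platelets, was at 3.01, 4.11 and 3.59 CPM with METTL3 and at 2.30, 6.28 and 6.08 CPM with the vector, with a log2 fold change of -0.45 over 6 libraries (standard error 0.352, edgeR adjusted p = 0.714) and -0.68 in replicates 2 and 3 (standard error 0.116, edgeR adjusted p = 0.000925). For both genes vector control replicate 1 was the lowest library, and the platelet markers PF4 and GP9 were at 0.016 CPM or less throughout. All 4 platelet markers summed to 11.1 to 25.1 CPM with METTL3 and to 7.32 to 46.0 CPM with the vector, most of it PPBP, and their part in the ITGA2B values was not tested.

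**Figure D4:**
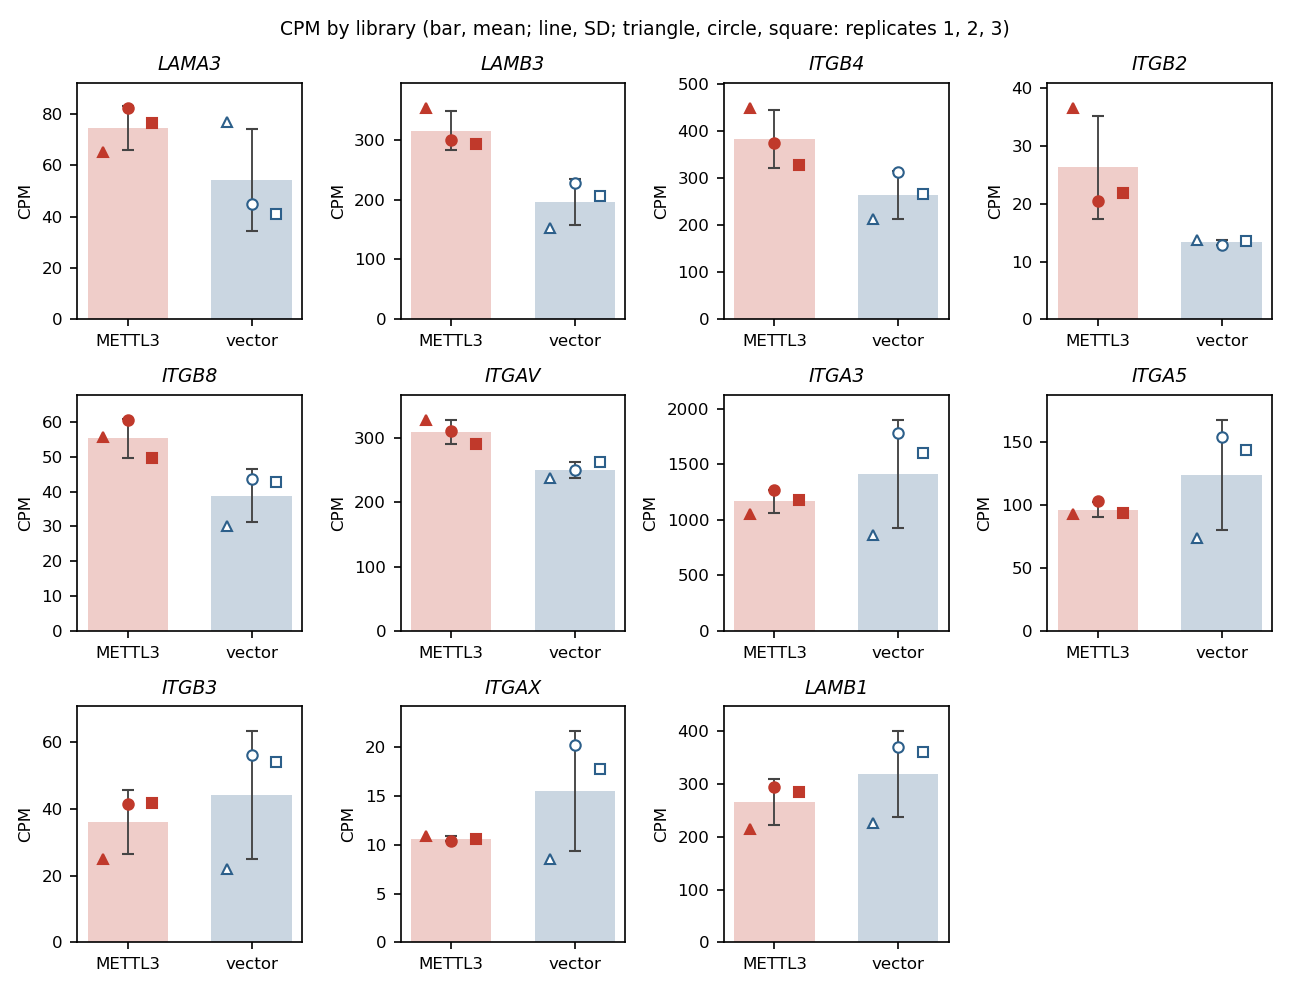
CPM (vertical) of 11 of the genes in METTL3-overexpressing and vector control libraries; bars are means, lines are SD over 3 libraries, and triangles, circles and squares are replicates 1, 2 and 3. LAMB3, ITGB4, ITGB2, ITGB8 and ITGAV are higher in every METTL3-overexpressing library, and for ITGA3, ITGA5, ITGB3, ITGAX and LAMB1 the vector control triangle lies below its 2 fellow libraries.

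The adhesion machinery inside the cell was read from a list of 51 genes, of which 50 were tested. With METTL3, 27 were higher and 23 lower over 6 libraries, with a median log2 fold change of 0.014, and 0 passed an adjusted p-value of 0.05 in edgeR's test. Unadjusted p-values of this test were under 0.05 for 7 higher and 1 lower, against 4.4% and 3.91% of all genes tested. The smallest p-values belonged to TNS4, PTK2B and TNS3 among the genes reported. TNS4, a tensin that binds the tails of beta integrins, was at 137.3, 109.8 and 109.0 CPM with METTL3 and at 62.5, 48.8 and 48.2 CPM with the vector, the log2 fold change being 1.16 (standard error 0.151, edgeR adjusted p = 0.170). The log2 fold changes of PTK2B, a kinase related to FAK, and TNS3, another tensin, were 0.85 and 0.68. In replicates 2 and 3, 7 genes of the list were called higher and 14 lower, against 6.66% and 8.59% of all genes tested. Those higher were TNS4, PTK2B, TNS3, CAV1, FERMT1, KANK1 and TLN2, and the largest falls were those of TNS1, a further tensin, LIMS2, FYN and FERMT2, with log2 fold changes of -0.69, -0.64, -0.53 and -0.31. The genes lower also included PTK2, which encodes FAK, and ZYX, PXN, VCL and ACTN1 of focal adhesions, with log2 fold changes from -0.24 to -0.17. ZYX, PXN, VCL and ACTN1 were higher with METTL3 within replicate 1.
Of 27 matrix ligands and laminin partners other than collagens, 25 were tested, 16 were higher and 9 lower, and 0 passed over 6 libraries. Unadjusted p-values of edgeR's test were under 0.05 for 5 higher and 1 lower, against 4.4% and 3.91% of all genes tested. In replicates 2 and 3, 5 were called higher and 5 lower, against 6.66% and 8.59% of all genes tested. NTN4, which binds laminin gamma chains, was at 145.0, 118.1 and 114.0 CPM with METTL3 and at 95.3, 71.7 and 66.7 CPM with the vector (log2 fold change 0.69, standard error 0.165, edgeR adjusted p = 0.398). The log2 fold changes over 6 libraries of the matrix genes with the next smallest p-values, NID2, HSPG2 and FGB, were 0.81, 0.81 and -0.89. Of the 4 hemidesmosome genes PLEC, DST, COL17A1 and CD151, 0 passed over 6 libraries, and CD151, a tetraspanin partner of laminin-binding integrins, was called lower in replicates 2 and 3 with a log2 fold change of -0.19. DESeq2 called 5 genes of these lists, TNS4, PTK2B, TNS3 and NTN4 among them, over 6 libraries, against 1.19% of all genes with an adjusted p-value.

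m6A is written most often at the core GGACU, and sites cluster near stop codons. The motif GGACT was counted on the sense strand in the longest protein-coding transcript of each gene (GENCODE 44). It occurred at least once in all 36 tested genes of the set, against 92.6% of 14820 protein-coding genes tested, with a median of 1.25 against 0.939 sites per kilobase. Among the set, ITGAX held 2.36 and ITGA2 0.383 sites per kilobase. For genes with a mean of at least 10 CPM whose closest site lay within 100 bases of the last coding base, 25 bases around that site are printed, with the motif in capitals and T for U. These sites lie at -71 bases in LAMB3 (chr1:209615331-209615355, reverse strand, coding), at -3 bases in ITGB5 (chr3:124763615-124763639, reverse strand, at the stop codon), and in the 3′ UTR at 86 bases in LAMA5 (chr20:62309239-62309263, reverse strand), at 43 bases in ITGAE (chr17:3714793-3714817, reverse strand) and at 19 bases in ITGAX (chr16:31381913-31381937, forward strand).
LAMB3: ggacctgacaGGACTggagaagcgt
ITGB5: atggcactgtGGACTgatgtttcct
LAMA5: gtgtctatttGGACTctaagctcta
ITGAE: gccagtcctgGGACTtggagaccca
ITGAX: tctttgccttGGACTtcttctcccc
The libraries measured transcript levels and not methylation. Of the genes with these sites, LAMB3 was called higher and ITGB5 and ITGAX lower in replicates 2 and 3, while LAMA5 and ITGAE were not called there. None of these genes passed edgeR's test over 6 libraries.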

How the data were processed

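Messenger RNA of 3 METTL3-overexpressing and 3 vector control OVCAR5 libraries was sequenced. Per the paper's methods, alignment used hisat2 (hg38) and gene counting used Subread; the submitters' processing notes also name fastp and featureCounts. The values the authors deposited are raw counts, 1 column per library, without normalization. Tool versions, annotation release, strand setting and handling of reads shared between genes are not given in the sources used here. The library kit differs between the paper (NEBNext) and the labels (TruSeq Stranded), and the paper describes single-end reads. Of the counts from 1 to 20, 68.9% were even, so counting error may be larger than the counts imply.

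Gene names, positions and exon lengths came from GENCODE 44 (GRCh38), which named 60507 of 60649 rows. Genes kept by filterByExpr were tested in edgeR 4.0.16 (R 4.3.3) by the quasi-likelihood test, glmQLFTest after a robust glmQLFit on TMM-scaled counts. P-values were adjusted by Benjamini-Hochberg across every gene tested, and 0.05 was the threshold. Each standard error is the size of the fitted log2 change divided by the root of its F statistic. DESeq2 1.42.0 was an alternative. The functions were also run on simulated counts in which 200 genes were given a change of 2 fold. The outcome of that run is not given here. The members, gene lists and alternatives were chosen with earlier results of these data known. Values in every library are given for members with a mean of at least 10 CPM, members called in either comparison and members whose groups do not overlap. Some genes that these rules select are not reported here, though counts over the set and the lists include them. From each list of other genes, those with the smallest p-values are named, up to 4 a list. Genes beyond that rule, named where a short count is broken down, were chosen after their values were seen.

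The deviations of same-numbered libraries from their group means had correlations of 0.334 (replicate 1), 0.12 (replicate 2) and 0.175 (replicate 3). All exceed 0.1, so a fit with the replicate number as a block was also made; the values printed come from the fit without it. This pairing comes from the values, and libraries 2 and 3 of opposite groups correlated as well (0.205 and 0.133). Groups of 3 against 3 cannot give an exact permutation p under 0.1, so no such test was used.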

Additional observations from a re-analysis of the deposited data

How the results depend on the processing

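On all 6 libraries, 0 of the integrin and laminin genes, 0 of the adhesion list genes and 0 genes overall passed, and this held with other size factors, with at least 10 counts in every library, with counts divided by 2 and with the replicate number as a block, which changed no call (0 genes). DESeq2 called 225 genes, 2 of the set and 5 of the adhesion lists. Without a filter on low counts the numbers were 560, 4 (ITGB2, LAMB3 and ITGB4 higher, ITGA9 lower) and 7, and in replicates 2 and 3 of each group they were 3362, 18 and 31. Leaving out 1 library gave 0 to 367 genes, 0 to 4 of the set and 0 to 3 of the lists, and the higher values came only from leaving out vector control replicate 1, where LAMA3 was called higher and ITGA5, ITGA9 and ITGAX lower. Among the members given in every library, directions turned for ITGA1 (-0.16), ITGA2 (-0.045), ITGA6 (-0.058) and LAMC1 (-0.035) in replicates 2 and 3. Of the members with lower counts, ITGAM (0.084 to -0.20) and LAMA2 (-0.037 to 0.077) also turned there. With 1 library left out, the log2 fold changes of members given in every library that turned at least once ranged from -0.14 to 0.45 for ITGA1, -0.060 to 0.095 for ITGA2, -0.10 to 0.14 for ITGA6, -0.24 to 0.057 for ITGB5 and -0.080 to 0.62 for ITGB6. Levels per kilobase moved beyond the spread over libraries for 34 of 38 genes when the mean transcript length replaced all exons, and for 0 when raw totals replaced TMM. The mean transcript length was the shorter of the lengths for all 38 genes, so its use could only raise the levels. The cause of the differences between the fits was not tested.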
